A study of Mus musculus with 2 samples.

Results

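The genes described here encode matrix metalloproteinases (MMPs), ADAMs, ADAMTSs, ADAMTS-like proteins and the MMP inhibitors TIMP and RECK, which together cut, shed and protect the extracellular matrix. Members were the 55 listed genes of these families, each read through the probe sets whose annotation names that symbol alone. Of the 55 genes, 50 had such a probe set, out of 18193 genes in all, with 101 probe sets between them. Mmp15, Mmp28, Adamts2, Adamts14 and Adamts17 were not analysed here.

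The samples were a Venus-positive and a Venus-negative cell fraction, sorted by flow cytometry from embryos of Col2a1-Venus-Tg mice on the C57Bl/6 background. In this transgenic line a GFP-derived fluorescent protein, Venus, labels chondrocytes, the cells that make cartilage, under the name of Col2a1, the gene of the main cartilage collagen. Both fractions thus carry the transgene, and the Venus-negative one holds unlabelled embryonic cells of any type. For the embryos' stage and number and for the sort gates, the sources used here give no information. Each fraction was measured on 1 Affymetrix array for the mouse genome, so no difference below has a replicate error or a test, and each describes these 2 arrays. In such bulk samples, fewer cells of a type and less RNA per cell cannot be told apart.

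MMPs are zinc-dependent proteases that are made as inactive proenzymes, and they degrade collagens and other matrix proteins at the cell surface or after secretion. ADAMs are membrane proteins of which many shed growth factors, receptors and adhesion molecules from the cell surface. ADAMTSs are secreted relatives: one group cleaves aggrecan and versican, the large proteoglycans of cartilage and of embryonic connective tissue, and another removes the N-terminal propeptide from fibrillar procollagens. ADAMTS-like proteins resemble ADAMTSs without a protease domain, and several bind fibrillin microfibrils. TIMPs block the active sites of these proteases, and RECK is a membrane-anchored regulator of MMPs.

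Signals are MAS5 intensities on a linear scale, and pairs of signals joined by "against" give the Venus-negative array first. Signals below 22.5, the median over both arrays, were raised to that floor before folds were taken, and a gene counts as measured where either array reached that floor with any of its probe sets. A fold with the dimmer signal below the floor is a lower bound, written "at least". Each gene was read from its brightest probe set, by the mean of its floored log2 signals. In the 5445 genes that had more than 1 measured probe set, log2 ratios within a gene had a pooled standard deviation of 0.34, which describes probes and not samples. The Venus-positive array was dimmer, with a median log2 ratio of -0.33 over 11789 measured genes, so ratios are also given relative to this median gene. The sort was checked on cartilage markers: all 9 were at least 2-fold higher in Venus-positive cells, Col2a1 at 606 against 8443 and the cartilage transcription factor gene Sox9 at 338 against 1601. Col2a1 names the reporter that chose the cells and is no independent finding.

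Of the 50 genes, 38 were measured. Of these, 30 had a lower signal in Venus-positive cells as deposited, beside 77.3% of all measured genes on this dimmer array. Against the median gene 22 of the 38 were lower, where all measured genes split evenly. On the deposited scale 12 of 38 (31.6%) were at least 2-fold lower, where 11.6% of all measured genes were. Only Adamts3 (2.63% of the 38) was at least 2-fold higher, beside 2.79% of all measured genes. Relative to the median gene 8 members (21.1%) were at least 2-fold lower and 2 (5.26%) were higher, beside 6.45% and 5.06% of all measured genes. The median log2 ratio of the 38 was -0.50 on the deposited scale and -0.17 relative to the median gene. The 8 genes lower on both scales were Mmp11, Adam10, Adam19, Adamts5, Adamts7, Adamts9, Adamts20 and Adamtsl2. Adamts3 was the higher gene on both scales, and Timp1 joined it relative to the median gene.

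**Figure D1:**
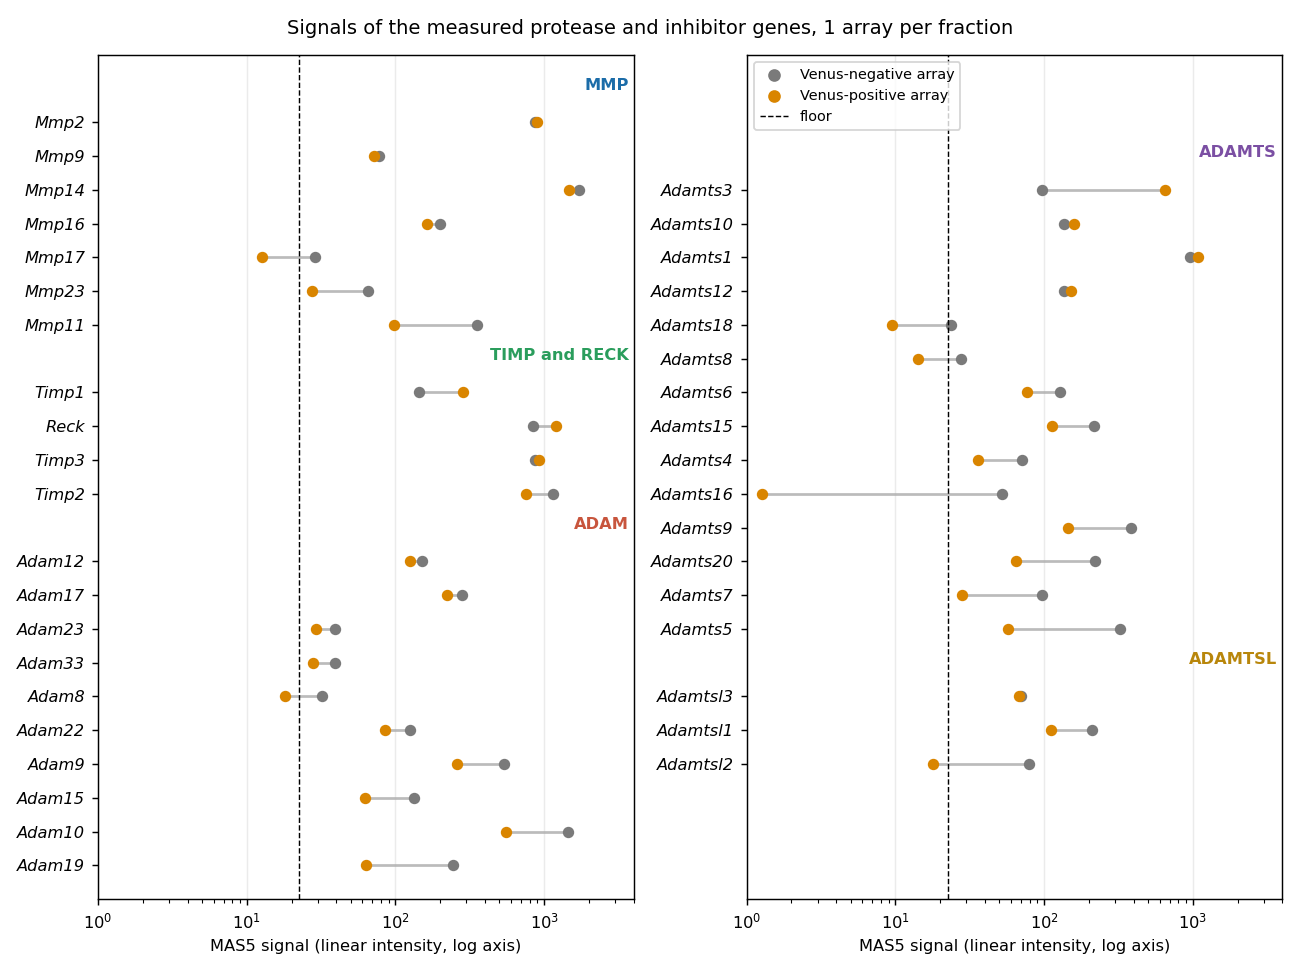
MAS5 signal of each of the 38 measured genes on the Venus-negative (grey) and Venus-positive (orange) array, by family, on a logarithmic axis, with the floor of 22.5 as a dashed line. Adamts3 and Timp1 have their orange point furthest to the right of the grey one, while the orange points of Mmp11, Adam10, Adam19 and Adamts5 lie well to the left. The Venus-positive signals left of the dashed line are those raised to the floor.

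**Figure D2:**
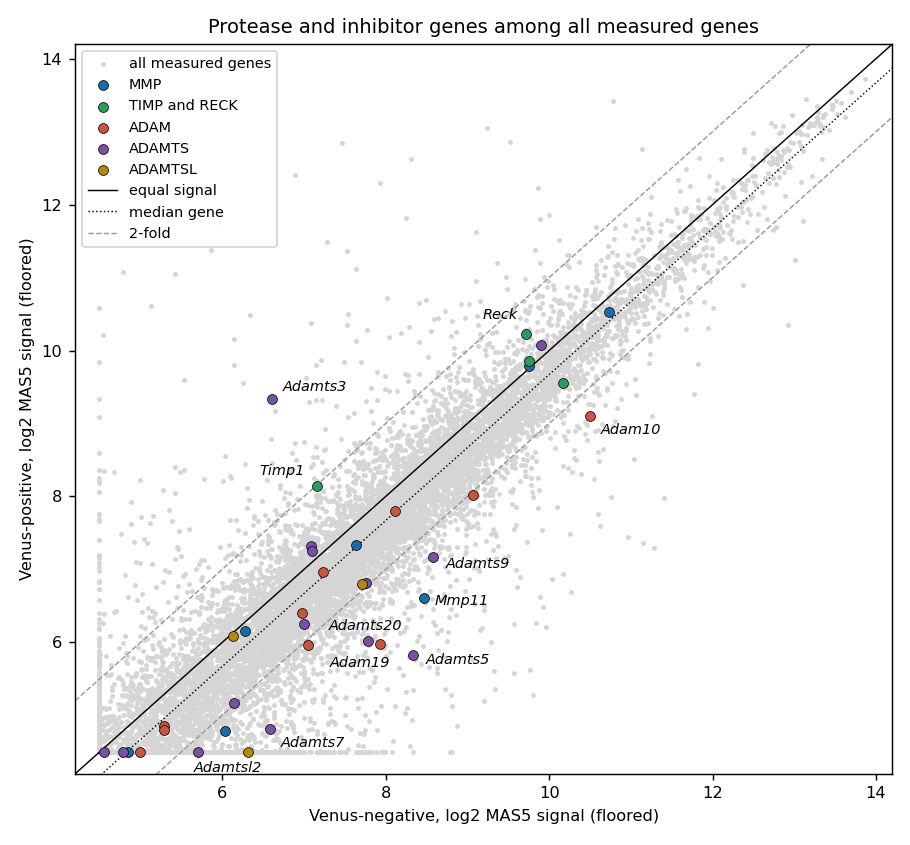
Log2 signals, after the floor was applied, of all 11789 measured genes (light grey) on the Venus-negative (x) and Venus-positive (y) arrays, with the measured family members in colour. The solid line marks equal signal, the dotted line the median gene and the dashed lines a 2-fold difference. Adamts3 is the 1 coloured point above the upper dashed line, Timp1 lies just under it, and 12 coloured points lie below the lower one.

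Among the MMPs, 7 of 14 genes with a probe set were measured. The genes of the main pericellular collagen-degrading enzymes were close to level. Mmp2, the gelatinase that cuts denatured and basement membrane collagen, had a signal of 864 in Venus-negative and 887 in Venus-positive cells, a log2 ratio of 0.04, and its second probe set gave -0.04. Mmp14, the membrane-type collagenase that activates pro-MMP2, was at 1699 against 1475, a log2 ratio of -0.20, with -0.25 as the lowest of its 3 probe sets. Both genes lay slightly above the median gene, by 0.37 and 0.13 on the log2 scale. Mmp16, another membrane-type enzyme, was at 199.6 against 162, but its 4 probe sets ran from -0.30 to 0.51, on both sides of 0. Mmp9, the gelatinase of osteoclasts and white blood cells that is needed when vessels invade the growth plate, was at 77.3 against 71.4. Its second probe set went the other way, from 10.3, below the floor, to 29.3, so no direction could be read for Mmp9.

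Mmp11 and Mmp23 were the MMP genes that differed by 2-fold or more, both lower. Mmp11, known as stromelysin 3 and typically a product of connective tissue cells, had a signal of 355 in Venus-negative and 97.5 in Venus-positive cells, 3.64-fold lower, on its single probe set. It was lower by at least 2-fold under all 8 processing alternatives. Mmp23 was at 65.5 against 27.6, 2.37-fold lower, but its second probe set was level (32.9 against 31.9), and its log2 ratio relative to the median gene was -0.91. The call for Mmp23 was lost with 5 of 7 alternatives that measured it. Mmp17, which encodes a glycosylphosphatidylinositol-anchored MMP, was near the floor, at 28.9 against 12.6. In the MMP family 5 of 7 measured genes were within 2-fold, and the median log2 ratio was -0.30, close to that of all genes. The 2 lower genes were 28.6% of the 7, beside 11.6% of all measured genes. Relative to the median gene 1 (14.3%) was at least 2-fold lower, beside 6.45% of all measured genes.

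The other 7 MMP genes stayed below the floor on both arrays. They comprised both collagenases listed, Mmp8 (9.89 and 1.64 in Venus-negative and Venus-positive cells) and Mmp13 (6.00 and 2.44). Mmp13 is the collagenase of hypertrophic chondrocytes and osteoblasts. The stromelysin genes Mmp3 (6.61 and 7.91) and Mmp10, the macrophage elastase gene Mmp12 (0.755 and 1.27), Mmp19 and Mmp24 were also below it. Signals of this size have no order here, and a gene below the floor is not shown to be absent. The hypertrophic markers were measured in the same 2 fractions, which as bulk samples cannot show which cells express them. Of 6 measured, 5 were at least 2-fold higher in Venus-positive cells, beside 2.79% of all measured genes. Ihh was at 16.3 against 170.0. Ibsp, a bone sialoprotein gene that mature chondrocytes share with osteoblasts, was at 120 against 361. Col10a1 was dim, at 0.629 against 48.1, at least 2.14-fold higher, and Alpl, at 26.5 against 45.5, was within 2-fold. With a floor at the 75th percentile 2 of 3 measured markers were 2-fold higher.

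Of these dim MMP genes, Mmp13, Mmp12, Mmp3, Mmp10 and Mmp8 follow each other on chromosome 9, with at most 1 other protein-coding gene between neighbours in RefSeq's GRCm38.p6 annotation. MMP promoters of this kind are known for a TATA box and an AP-1 element, the site of Fos and Jun factors, close to the start. The 250 bases before the annotated start are shown for the 3 cluster genes that hold both, and for Timp1, the inhibitor with the highest ratio, from RefSeq's promoter table for GRCm38.p6. All 4 are on the plus strand and written 5′ to 3′. Capitals mark matches, on either strand, to any of 4 motifs, none of which overlap each other here. For AP-1 the letters searched were TGANTCA. The TATA box was searched as TATAAA. For RUNX factors the core was TGTGGT. For SOX factors, the family of Sox9, it was AACAAT.
Mmp13, chr9:7272264-7272513: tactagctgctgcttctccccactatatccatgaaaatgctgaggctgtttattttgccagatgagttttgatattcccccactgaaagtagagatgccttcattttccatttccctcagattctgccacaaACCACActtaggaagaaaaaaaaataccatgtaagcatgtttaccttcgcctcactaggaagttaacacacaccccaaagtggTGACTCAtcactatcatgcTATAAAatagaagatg
Mmp3, chr9:7445572-7445821: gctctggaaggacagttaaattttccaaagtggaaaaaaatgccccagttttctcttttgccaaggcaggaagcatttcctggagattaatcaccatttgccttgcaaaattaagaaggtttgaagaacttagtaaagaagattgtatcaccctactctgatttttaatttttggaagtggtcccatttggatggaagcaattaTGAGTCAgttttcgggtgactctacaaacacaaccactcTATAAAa
Mmp10, chr9:7502092-7502341: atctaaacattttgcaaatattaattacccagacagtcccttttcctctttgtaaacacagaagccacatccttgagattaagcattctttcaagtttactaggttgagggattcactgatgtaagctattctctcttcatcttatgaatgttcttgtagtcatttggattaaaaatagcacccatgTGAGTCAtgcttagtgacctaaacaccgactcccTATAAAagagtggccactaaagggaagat
Timp1, chrX:20869916-20870165: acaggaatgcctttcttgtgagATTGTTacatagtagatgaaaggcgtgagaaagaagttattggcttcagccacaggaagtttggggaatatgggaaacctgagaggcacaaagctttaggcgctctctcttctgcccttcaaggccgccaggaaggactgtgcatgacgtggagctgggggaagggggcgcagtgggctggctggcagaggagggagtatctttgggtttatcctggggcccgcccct
In Mmp13 the AP-1 match began 35 bases before the annotated start, in Mmp3 46 and in Mmp10 63 bases before it, each followed by the TATA box. Mmp13 also held a RUNX core 118 bases before the start, and Timp1 held a SOX core 228 bases before it. Promoters were listed for 36 of the 55 members, 40 in all. AP-1 was found in promoters of 5 members, Mmp3, Mmp10, Mmp12, Mmp13 and Adam19, of which Adam19 alone was measured. Of the 31 members without it, 21 were measured, 5 were below the floor and 5 had no probe set. Of all 18193 genes with a probe set, 11789 were measured. Mmp3, Mmp10, Mmp12 and Mmp13 belong to 1 cluster of related genes, so they are not separate instances. A link between AP-1 and signal was not tested. Of the 40 member promoters, 5 held AP-1, 5 the TATA box, 5 the RUNX core and 1, that of Timp1, the SOX core. Among all 32851 promoters of that length, AP-1 was found in 6.75%, the TATA box in 12.4%, the RUNX core in 14.0% and the SOX core in 9.42%. A match describes letters and not a bound site.

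None of the 4 measured inhibitor genes was at least 2-fold lower on either scale, a count too small to set against the 11.6% and 6.45% of all measured genes. Timp1, a secreted inhibitor, was at 143 in Venus-negative and 284 in Venus-positive cells. This was 1.98-fold higher on the deposited scale and a log2 ratio of 1.32 relative to the median gene, from 1 probe set. Reck was at 839 against 1199.7, 1.43-fold higher, and 0.85 above the median gene on the log2 scale. Timp3, which binds to matrix and also blocks ADAM17 and the aggrecanases, was near level at 861 against 928, and its 4 probe sets ran from -0.22 to 0.11. Timp2, which also takes part in the activation of pro-MMP2, was the lower inhibitor, at 1152 against 751, 1.53-fold, and its 5 measured probe sets all lay between -0.89 and -0.43. Timp4 was below the floor on both arrays. With 4 measured genes, the median log2 ratio was 0.31 on the deposited scale and 0.64 relative to the median gene.

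All 10 measured ADAM genes had a lower signal in Venus-positive cells, on whose dimmer array 77.3% of all measured genes were lower. Of the 10, 8 also lay below the median gene, on either side of which all measured genes split evenly. Adam19, which sheds neuregulins and is known for its role in heart development, was at 245 in Venus-negative and 63.0 in Venus-positive cells, 3.88-fold lower. Its second probe set went from 60.6 to 16.8, at least 2.69-fold lower. Adam10, the main sheddase of Notch receptors and cadherins, was at 1447 against 549.6, 2.63-fold lower, and its second measured probe set gave 212 against 97.3. Both genes kept at least 2-fold under all 8 alternatives. Adam9 was at 538 against 260.2, 2.07-fold lower on 1 probe set, and was within 2-fold once the arrays were brought to a common level by centring, quantiles or hybridisation controls.

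The ADAM15 gene was less settled. The probe set that stood for Adam15 gave 133 against 62.7, 2.11-fold lower, but it belongs to a class that can match several transcripts, and the other measured one was level at 28.3 against 27.0. Adam17, the sheddase of tumour necrosis factor and of ligands of the epidermal growth factor receptor, was at 278 against 223, with probe sets from -0.99 to -0.31. Adam12, found in muscle and mesenchyme, was at 151 against 126. Adam33 was at 39.0 against 27.8, and its second probe set was lower by at least 2.12-fold. Adam8, a gene of leukocytes and osteoclasts, was at 32.0 against 18.2. Adam22 and Adam23, which lack an active catalytic site and act as adhesion and synaptic proteins, were at 126 against 84.9 and 39.1 against 29.0. Adam28 was below the floor. The family's median log2 ratio was -0.54, or -0.21 relative to the median gene.

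The ADAMTS genes spread furthest, from Adamts3 to Adamts5. Adamts3, the enzyme known to remove the N-propeptide of type II procollagen and to process VEGF-C, was at 97.3 in Venus-negative and 649 in Venus-positive cells, 6.67-fold higher. It ranked 50 from the top among all 11789 measured genes. Its second probe set was dim, at 15.2 against 29.8, and pointed the same way with a log2 ratio of at least 0.41. The mean of both gave 1.57 in place of 2.74, still past 2-fold. Adamts2 and Adamts14, the other procollagen N-proteinases, were not analysed here.

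On the deposited scale, genes of the ADAMTSs that cleave aggrecan and versican were level or lower in Venus-positive cells. Of these 7, grouped after the values were seen, 3 (42.9%) were at least 2-fold lower on each scale. The shares of all measured genes were 11.6% and 6.45%. Acan, the gene of their substrate aggrecan, was higher in Venus-positive cells, at 62.6 against 3461, and a link to these genes was not tested. Adamts5, the main aggrecanase of mouse cartilage in adult joint disease, was at 323 in Venus-negative and 56.8 in Venus-positive cells, 5.68-fold lower. Its other measured probe sets gave 258 against 51.6 and 71.9 against 21.0, so all 3 were at least 2-fold lower, and Adamts5 ranked 119 from the bottom among all measured genes. Adamts20, known from the belted white-spotting mouse, was at 220.3 against 64.9, 3.39-fold lower on 1 probe set, and Adamts9, a versicanase, at 382 against 144, 2.65-fold lower. The 3 probe sets of Adamts9 ran from -1.41 to -0.35, and their mean, -0.83, was within 2-fold. Adamts20 was within 2-fold, at -0.95, when the floor was set at the 75th percentile.

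The remaining aggrecanases and versicanases did not reach 2-fold. Adamts4, the second aggrecanase, was just inside it, at 70.6 against 35.8 with both probe sets near -1 (-0.98 and -1.01). Adamts15 was at 216 against 113, 1.92-fold lower. Adamts8 was near the floor, at 27.5 against 14.3. Adamts1, a versicanase with a broad embryonic role, was at 957 against 1082, the 1 gene of these 7 with a higher signal in Venus-positive cells. Versican itself (Vcan) was level, at 2496 against 2535. Over the 7 genes the median log2 ratio was -0.98, and -0.65 relative to the median gene.

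The other ADAMTS genes included Adamts7, which cleaves COMP, a cartilage matrix protein, at 96.2 against 28.1, 3.42-fold lower on 1 probe set. Adamts12, its close relative, was slightly higher at 137 against 152. Adamts10, which acts on fibrillin microfibrils and underlies Weill-Marchesani syndrome, was at 136 against 159, while Adamts6, its close relative, was at 128 against 76.2, 1.68-fold lower. Adamts16 was at 52.1 against 1.26, at least 2.32-fold lower, whereas its second probe set was almost level (26.5 against 21.2). The call for Adamts16 was lost relative to the median gene (-0.88), with the mean over probe sets (-0.72) and with a floor at the 25th percentile (-0.32). Adamts18 was close to the floor and Adamts19 below it. Across the ADAMTS family 5 of the 14 measured genes (35.7%) were lower by 2-fold or more and 1 (7.14%) was higher. Of all measured genes 11.6% were lower and 2.79% higher. Relative to the median gene 4 were lower and 1 was higher, beside 6.45% and 5.06%. The family's median log2 ratio was -0.84, or -0.51 relative to the median gene.

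Among ADAMTS-like genes, 3 of 5 were measured. Adamtsl2, which binds fibrillin and limits TGF-beta availability and is mutated in geleophysic dysplasia, was at 79.3 against 18.0, at least 3.53-fold lower on 1 probe set. Adamtsl1 was at 209.8 against 111, 1.89-fold lower, with its 3 probe sets between -1.30 and -0.92. Adamtsl3 was level at 69.9 against 68.1. Adamtsl4 and Adamtsl5 were below the floor on both arrays.

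**Figure D3:**
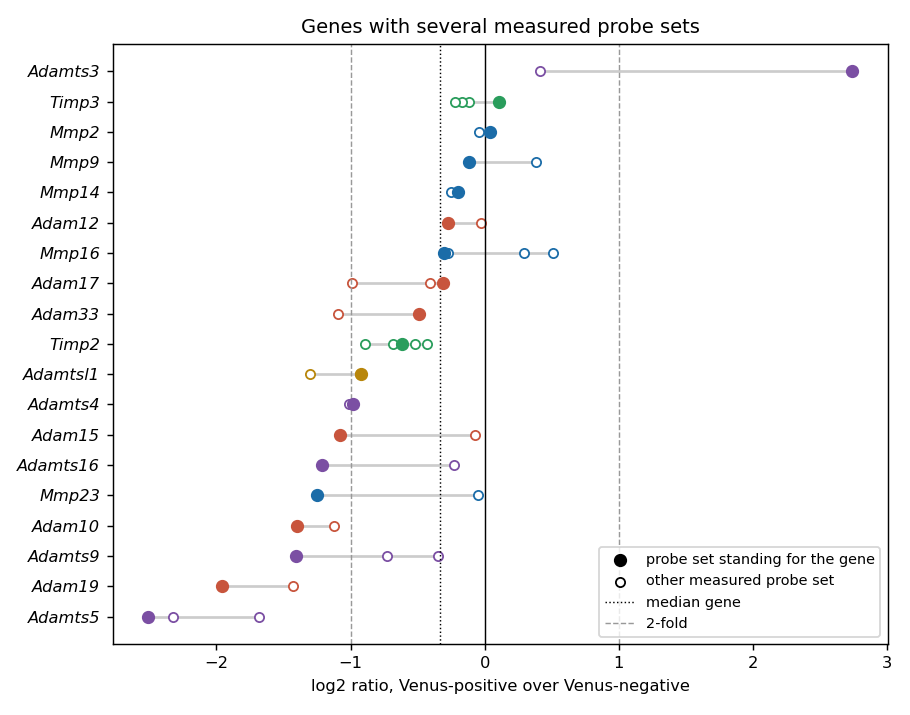
Log2 ratio (Venus-positive over Venus-negative) for each measured probe set of the 19 members that had several. Filled points are the probe sets that stood for the gene, open points the others, the dotted line is the median gene and the dashed lines are 2-fold. All points of Adamts5, Adam19 and Adam10 lie left of the lower 2-fold line, while those of Adam15, Adamts16 and Mmp23 reach almost to 0 and the second point of Adamts3 lies far from the first.

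The probe sets of 1 gene thus differed in how firmly they placed it. Of the 12 lower genes, 7 had several measured probe sets, and in 3 of these, Adam10, Adam19 and Adamts5, each measured probe set was at least 2-fold lower. Another 5 genes, Mmp11, Adam9, Adamts7, Adamts20 and Adamtsl2, rest on 1 measured probe set. The measured probe sets of 4 of the 19 genes lay on both sides of 0, namely Mmp2, Mmp9, Mmp16 and Timp3. Under the 8 alternatives, 6 of the 12 lower genes kept at least 2-fold wherever they were measured (Mmp11, Adam10, Adam19, Adamts5, Adamts7 and Adamtsl2), as did Adamts3 among the higher.

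**Figure D4:**
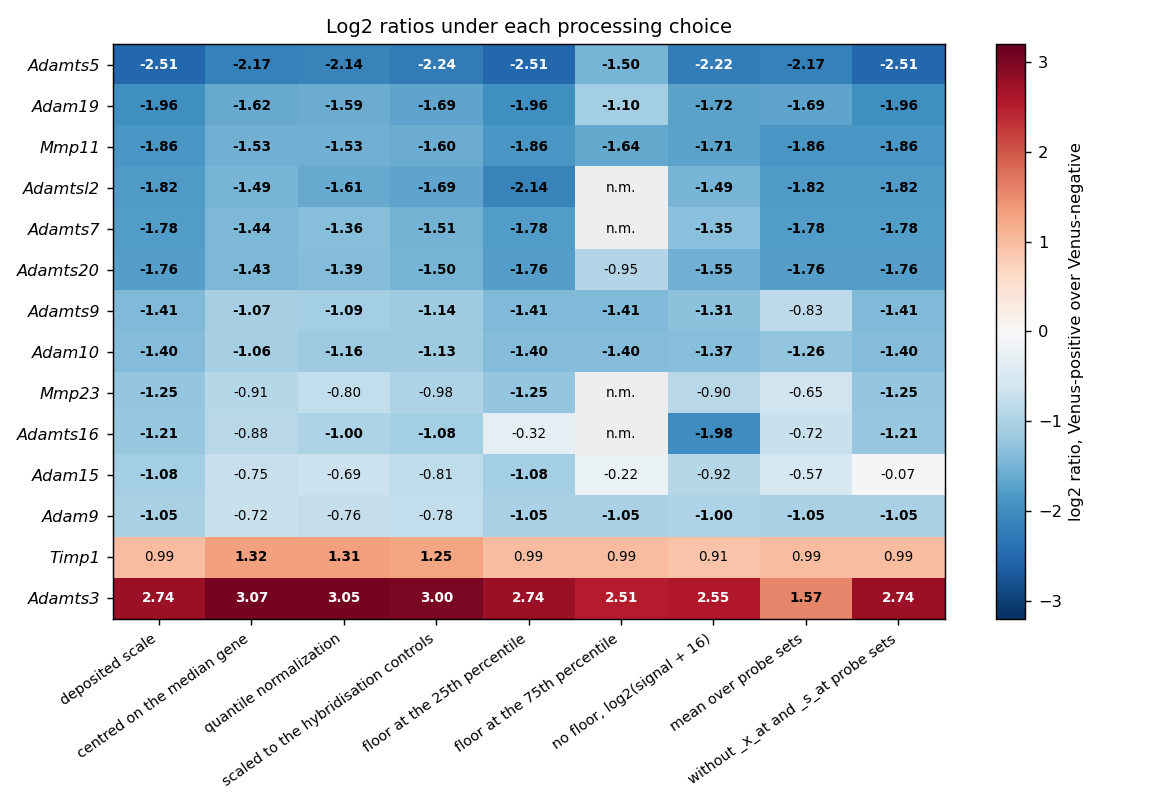
Log2 ratios of the 14 genes past 2-fold on the deposited or the median-centred scale (rows) under each processing choice (columns). Blue is lower and red higher in Venus-positive cells, bold values are past 2-fold, and n.m. marks a gene not measured under that floor. Adamts3 and Timp1 are red in every column and the other 12 blue wherever they were measured, with Mmp23, Adamts7, Adamts16 and Adamtsl2 not measured under the floor at the 75th percentile, and Adam15 has its palest cell, -0.07, without cross-matching probe sets.

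Other genes of matrix proteolysis were read from lists of related genes. Among convertases that remove protease prodomains, Furin was at 147 against 193 and Pcsk6 at 109 against 218, just short of 2-fold before rounding and past it relative to the median gene (1.33). Pcsk5 was at 619 against 270.2, 2.29-fold lower, but within 2-fold relative to the median gene (-0.86). In the plasminogen system 2 of 4 measured genes passed 2-fold downwards on both scales, beside 11.6% and 6.45% of all measured genes. Neither of the 2 did so with a floor at the 75th percentile. These were Plat, the tissue plasminogen activator gene, at 200.3 against 37.4, and Serping1, an inhibitor of complement and contact proteases, at 165 against 38.4. Among cathepsins and cystatins 5 of 13 (38.5%) were at least 2-fold lower and none was 2-fold higher, beside 11.6% and 2.79% of all measured genes. Relative to the median gene 3 were lower and 1, Ctsz (1054 against 1901), was higher, beside 6.45% and 5.06% of all measured genes. Ctss, the cathepsin of antigen-presenting cells, was at 395 against 47.6, and Ctsk, the collagenolytic cathepsin of osteoclasts, at 232 against 89.1. For Ctsc (345 against 82.2) another probe set gave a log2 ratio of -0.19.

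Procollagen processing genes again differed in direction. Pcolce2, which enhances cleavage of the C-propeptide, was at 149 in Venus-negative and 939.7 in Venus-positive cells, 6.33-fold higher on 1 probe set. Bmp1, the C-proteinase that it assists, was at 412 against 201, 2.05-fold lower, with its lowest and highest probe set at -1.04 and -0.98. Bmp1 was within 2-fold relative to the median gene (-0.70), and also with quantiles, hybridisation controls or no floor. Pcolce, the related enhancer gene, was at 1536 against 1301. The HTRA proteases were all within 2-fold, with Htra1 at 385 against 297.

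Of 13 measured cofactors of activation and clearance, 5 (38.5%) were at least 2-fold lower and 1 (7.69%) was higher. Of all measured genes 11.6% were lower and 2.79% higher. Relative to the median gene 4 cofactors were lower and 1 was higher, beside 6.45% and 5.06% of all measured genes. Sdc4, a syndecan that has been linked to ADAMTS5 activity, was the higher one, at 309 against 809, and was named after its values were seen. Tspan5, a tetraspanin that brings ADAM10 to the cell surface, was at 138 against 36.4 and had probe sets between -1.92 and -1.41. Tspan33, of the same tetraspanin group, was at 93.6 against 15.8, at least 4.16-fold lower, but with a second probe set at -0.46. Cav1, the caveolin gene, was at 352 against 61.6, and Cd44, the hyaluronan receptor that can dock MMP9, at 389 against 75.5, with other probe sets up to -0.19. Of the family genes outside the 55, 3 of 20 were measured, Thsd4 at 176 against 237, Adam4 and Adam11, none of them 2-fold apart.

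**Figure D5:**
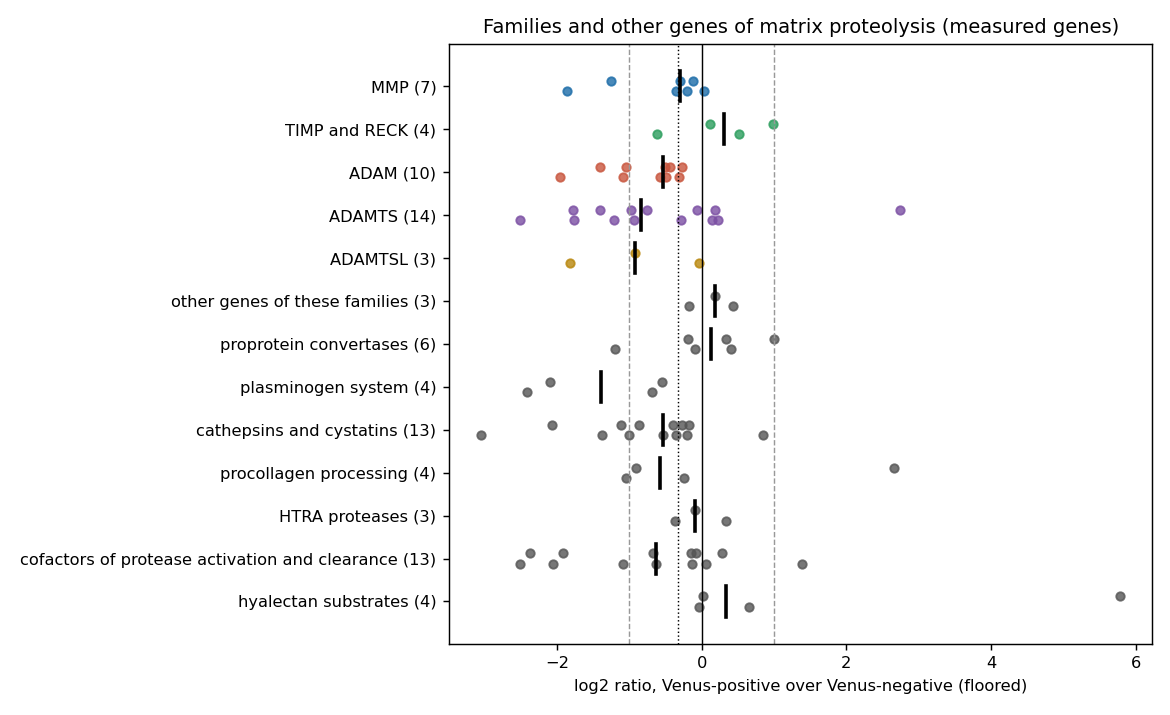
Log2 ratio of each measured gene, Venus-positive over Venus-negative, by family (coloured) and by list of other proteolysis genes (grey), with the number of measured genes in parentheses and a black bar at the median. The dotted line is the median gene and the dashed lines are 2-fold. The bar of the TIMP and RECK genes lies above 0 at 0.31, those of the ADAM, ADAMTS and ADAMTSL genes below the dotted line at -0.54, -0.84 and -0.92, and the single far right points are Adamts3, Pcolce2 and Acan.

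Most of the measured markers of other cell types were also lower in Venus-positive cells. Of 10 measured fibroblast and perichondrium markers 7 were lower by 2-fold or more in Venus-positive cells and none was higher by that much, with a summed signal of 29278 against 15314. All 11 leukocyte and macrophage markers were at least 2-fold lower (2406 against 264 summed), as were all 7 measured endothelial (813 against 152), all 6 measured neutrophil (986 against 71.2) and all 8 skeletal muscle markers (4396 against 335). Of all measured genes 11.6% were. Epithelial markers were lower in 7 of 8, neuronal in 5 of 7 and smooth muscle and pericyte markers in 6 of 8. Cspg4, a proteoglycan gene listed with the pericyte markers, went the other way, at 70.8 against 896, 12.7-fold higher. With a floor at the 75th percentile, 2 of 9 leukocyte, 0 of 3 endothelial, 2 of 2 neutrophil and 5 of 6 skeletal muscle markers were 2-fold lower. So were 6 of 10 fibroblast, 3 of 7 epithelial, 1 of 3 neuronal and 3 of 4 smooth muscle markers. The part of these cell types in the signals of Mmp11, Adam19, Adamts5 and the other lower genes was not tested. Of 9 osteoclast markers, Acp5 (58.8 against 27.7) and Ctsk were measured, both at least 2-fold lower, and the other 7, including Calcr, Dcstamp and Ocstamp, were below the floor on both arrays. Relative to the median gene Ctsk alone was (-1.05), with Acp5 at -0.75. For Mmp9 no direction could be read, since its probe sets went opposite ways.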

How the data were processed

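Total RNA (100 ng per sample, per the labels' protocols) from 1 Venus-positive and 1 Venus-negative sample was hybridised to 1 one-colour array each. The deposited values are linear intensities, 1 for each probe set and array, and the authors' software was MAS5 according to the submitters' processing notes. Its version, scaling target and detection calls are unstated in the sources used here. Control probe sets (64) were set aside, and 34945 probe sets with 1 symbol in the platform annotation were used. All 50 members with a probe set had the same gene identifier in RefSeq (GRCm38.p6).

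Signals below the floor (the 50th percentile, 22.5) were raised to it and log2 ratios taken as Venus-positive minus Venus-negative. Sizes of 2-fold are descriptions, since 1 sample per group allows no test. The steps were run on a simulated array with known changes in genes well above the floor and less noise than the spread between probe sets. Its recovery limit was set for raised genes only, so it did not cover lower calls or genes near the floor. The 8 alternatives were centring, quantile normalization, scaling to hybridisation controls, floors at the 25th and 75th percentiles, log2(signal + 16) without a floor, averaging over probe sets, and dropping those whose names end in _x_at or _s_at. Any of the 55 members could be named, and of each other list the 4 measured genes with the largest absolute log2 ratio, with Col2a1 and Sox9. Sdc4, Ctsz, Calcr, Dcstamp, Ocstamp, Col10a1 and Alpl fall outside this rule and were added after their values were seen. Members and lists were chosen with earlier results of these data known, and the roles within families were assigned from general knowledge after the values were seen. The number of arrays limits the precision. Work used Python 3.11.15, numpy 2.4.6 and pandas 2.3.3.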

Additional observations from a re-analysis of the deposited data

How the results depend on the processing

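Centring and scaling to the hybridisation controls shift nearly all genes by a constant, so their 75 member ratios say nothing about single genes. Under the other 6 alternatives the members gave 214 log2 ratios, of which 180 stayed within 0.34 of the reported value and 34 moved further, and no gene past 2-fold changed sign. Quantile normalization gave 14 of the 34. It too brings the arrays to a common level, so these 14 partly hold that shift. Adamts5, for example, counted as moved at -2.14, beside -2.17 when centred. The count of members at least 2-fold higher went from 1 to 2, by Timp1, when the arrays were centred on the median gene, quantile normalized or scaled to the hybridisation controls. The count of members at least 2-fold lower, 12 as reported, was 6 under a floor at the 75th percentile, which measures 25 members in place of 38, and ran from 8 to 14 otherwise. The floor at the 75th percentile also shrank Adamts5 to -1.50 and Adam19 to -1.10, since it raises the dimmer signal. The median log2 ratio of the members ran from -0.57 to -0.17. Of the other named genes, Pcsk5, Bmp1 and Acp5 fell within 2-fold, and Pcsk6 passed it, under centring, quantiles and hybridisation controls. Members within 2-fold that passed it in an alternative, besides Timp1, were Mmp17 (-1.19) and Adamts18 (-1.31) under a floor at the 25th percentile, and Adamts4 and Adamtsl1 (-1.05) with the mean over probe sets. No paired analysis was possible because each fraction has 1 sample and the labels give no replicate numbers. Signals near the floor of 22.5, such as those of Mmp17, Adam8, Adamts8 and Adamts18, are limited by background.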

Other observations

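Neighbouring genes of these families did not share a direction in each case. Adamts1 and Adamts5 lie side by side on chromosome 16, with 0 other protein-coding genes between them in RefSeq's GRCm38.p6 annotation. Adamts1 was near level at 957 in Venus-negative and 1082 in Venus-positive cells, while Adamts5 was at 323 against 56.8. Adamts15 and Adamts8, side by side on chromosome 9, had log2 ratios of -0.94 and -0.29, the latter near the floor.

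In procollagen maturation, the gene of an N-proteinase (Adamts3, 97.3 against 649) and of a C-proteinase enhancer (Pcolce2, 149 against 939.7) were higher in Venus-positive cells, by 6.67-fold and 6.33-fold. The second probe set of Adamts3 gave at least 1.33-fold. For the C-proteinase gene Bmp1 the signal was 2.05-fold lower as deposited, and relative to the median gene its log2 ratio was -0.70, inside 2-fold. Each rests on 1 array per fraction.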
